A study of Mus musculus with 9 samples.

Results

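The phagocyte NADPH oxidase is the enzyme complex with which neutrophils and macrophages make superoxide. Its catalytic chain gp91phox, encoded by Cybb, sits in the membrane together with p22phox, encoded by Cyba, which stabilises it. On stimulation cytosolic subunits, among them p47phox (Ncf1) and p40phox (Ncf4), move to the membrane, and the GTPase Rac2 joins them. Superoxide made by this complex is known both for killing microbes and for the suppression of T cells by the immature myeloid cells that gather in tumor-bearing mice.

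The genes described here are Cybb, Cyba, Ncf1, Ncf4 and Rac2, taken as every probe set of the array whose annotated symbol is exactly 1 of these names. That gave 6 probe sets for 5 genes, among 12488 probe sets in all. Cyba had 2 probe sets and the other genes 1 each. All 6 passed the filter on dim probe sets, which kept 8695.

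The cells were CD11b+ spleen cells, sorted from female mice that were 8 to 12 weeks old, and their RNA was measured on 9 Affymetrix MG-U74Av2 arrays. Of these, 3 hold cells of mice without a tumor (tumor-free), 3 hold cells of mice with a tumor taken at 0 h (fresh), and 3 hold cells of mice with a tumor after 24 h in complete medium (cultured). The labels do not name the tumor or the mouse strain, and no tumor-free cells were cultured. Whether the replicates of a group are separate mice is not stated, so p-values measure only how far these arrays lie apart, and that spread may be technical. Cells of many types share the CD11b gate, and in such bulk samples fewer cells of a type and less RNA per cell cannot be told apart.

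Itgam, which encodes CD11b itself, had a signal between 244 and 954 on the 9 arrays, and its partner Itgb2 between 309 and 1969. In each group the array with the lowest mean correlation with its own group over the tested probe sets is said to have stood apart. These arrays were tumor-free 1, fresh 3 and cultured 3, at 0.825, 0.887 and 0.859. The rule names 1 array in each group whatever the values. The arrays not named lay between 0.889 on cultured 1 and 0.925 on fresh 1, so fresh 3 was close to them. The ratio of the 3' to the 5' beta-actin probe set, a measure of RNA integrity, was 2.57 on tumor-free 1, 2.27 and 2.36 on cultured 1 and 2, and between 0.994 and 1.59 on the other 6 arrays. The mean log2 signal of the bacterial spike-in controls ran from 9.03 on fresh 3 to 10.5 on cultured 1. Values without these arrays are given beside the results they change.

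Promoter windows were at hand for 3 of the 5 genes, in RefSeq on GRCm38.p6. They are shown because Cybb, the gene with the largest differences in both comparisons with cultured cells, is set beside its membrane partner Cyba and the cytosolic subunit gene Ncf1. Each run holds the 250 bases before an annotated transcript start, 5′ to 3′ on the gene's strand, and capitals mark each match to GAAA, any 2 bases and GAAA, the core of the element bound by interferon regulatory factors, on either strand.
Cybb, chrX:9469325-9469574, minus strand: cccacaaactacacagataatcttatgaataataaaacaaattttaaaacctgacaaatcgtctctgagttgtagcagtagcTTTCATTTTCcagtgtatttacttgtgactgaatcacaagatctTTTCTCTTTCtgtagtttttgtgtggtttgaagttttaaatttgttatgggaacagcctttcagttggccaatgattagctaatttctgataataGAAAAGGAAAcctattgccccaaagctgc
Cyba, chr8:122432941-122433190, minus strand: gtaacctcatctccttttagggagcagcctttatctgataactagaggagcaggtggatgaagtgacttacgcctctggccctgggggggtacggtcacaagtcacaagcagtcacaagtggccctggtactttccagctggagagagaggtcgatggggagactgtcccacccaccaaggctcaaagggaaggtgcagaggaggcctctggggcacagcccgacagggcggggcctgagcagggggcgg
Ncf1, chr5:134229626-134229875, minus strand: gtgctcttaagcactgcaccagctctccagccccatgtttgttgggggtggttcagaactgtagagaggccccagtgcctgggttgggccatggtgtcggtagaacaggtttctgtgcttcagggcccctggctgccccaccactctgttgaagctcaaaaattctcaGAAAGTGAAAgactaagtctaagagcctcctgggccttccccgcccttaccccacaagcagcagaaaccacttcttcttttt

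Counting the base before the start as -1, the Cybb window held 3 matches to this core, at -168 to -159 and -124 to -115 on the opposite strand and at -29 to -20 on the gene's strand. Ncf1 held 1, at -82 to -73 on the gene's strand, and Cyba held none. The annotated Cybb start lies within the span of the gene, so other starts of it may exist. Of all 32851 RefSeq windows of the same 300 bases, 50 of them after the start, 3.44% held at least 1 match and 5 windows, or 0.0152%, held 3 or more, a count made after the Cybb matches were seen. GAGGAA, the core bound by the myeloid factor PU.1, was matched in Cybb on the opposite strand at 10 to 15 after the start and in neither other window, against 28.3% of all windows. GGAA, the core of the wider ETS family and contained in GAGGAA, was matched in all 3 windows and in 96.0% of all windows. The C/EBP core TTGCNNAA was matched in none of the 3 and in 10.8% of all. A match is a description of these letters and not evidence that a factor binds there.

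Of the 5 genes, Cybb was the one that passed the test in any comparison: it was 5.31-fold higher in cultured tumor-bearing cells than in tumor-free cells. Cyba, Ncf1, Ncf4 and Rac2 passed in none. Values are MAS5 signals on a linear scale, and fold changes are on the log2(signal + 7.83) scale, which understates changes of dim genes. Each test is a two-sided moderated test in limma with Benjamini-Hochberg adjustment over the 8695 probe sets and a threshold of 0.05.

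**Figure D1:**
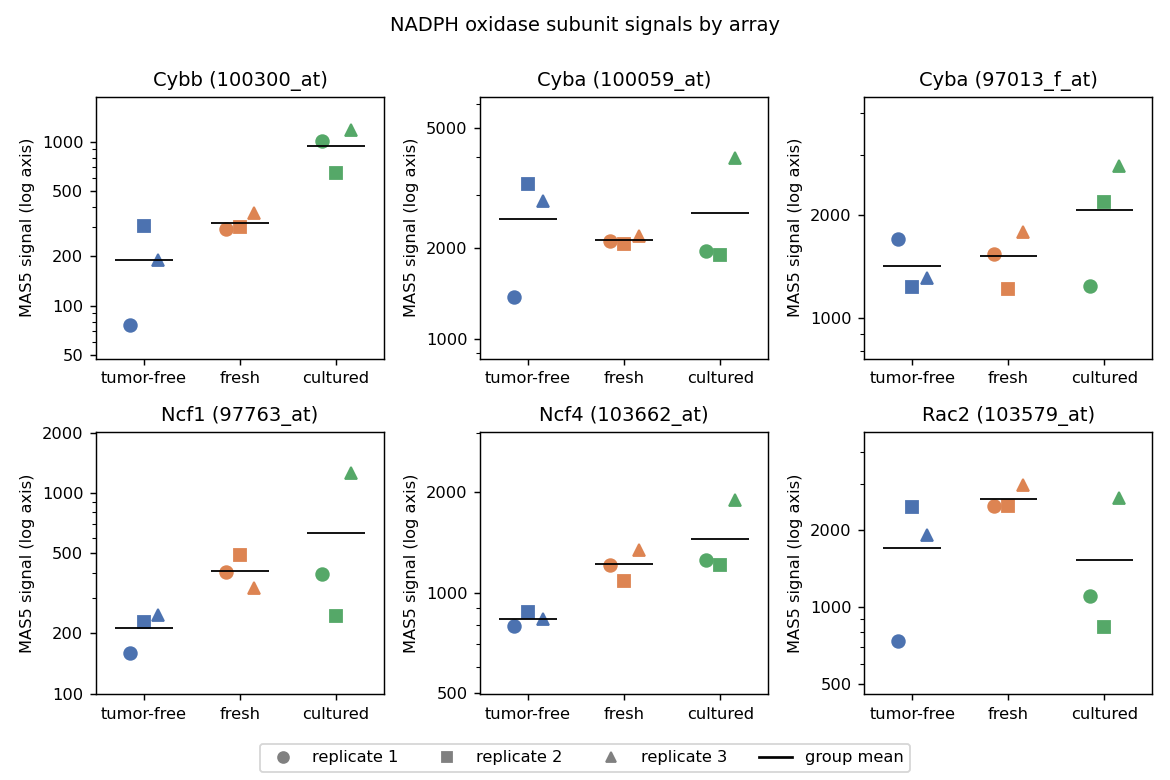
MAS5 signal (log axis) of the 6 probe sets of the oxidase genes on each array, by group, with a symbol for each replicate number and a line at the mean of 3 arrays. All 3 cultured arrays of Cybb (644 to 1176) lie above all fresh and tumor-free arrays, whereas tumor-free 1 is the lowest array for Cybb, 100059_at of Cyba, Ncf1, Ncf4 and Rac2, and cultured 3 the highest of the 9 for Cybb, both Cyba probe sets, Ncf1 and Ncf4.

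Cybb encodes the chain that carries electrons from NADPH across the membrane to oxygen. Its signal on probe set 100300_at was 76.3, 305.5 and 191.4 on tumor-free arrays 1, 2 and 3. It was 294.2, 300.1 and 367 on the fresh arrays and 1011, 644 and 1176 on the cultured arrays. The cultured arrays did not overlap with either other group, while tumor-free 2 lay above fresh 1 and 2.

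The group means of Cybb were 191.1 ± 114.6 in tumor-free, 320.6 ± 40.7 in fresh and 944 ± 272 in cultured cells (SD, n = 3 each). Cultured cells were higher than tumor-free cells by 2.41 ± 0.43 on the log2 scale (SE; limma adjusted p = 0.0226; 95% interval 1.47 to 3.35). In that comparison 1.23% of all probe sets passed, 107 of 8695, and 1 of the 6 oxidase probe sets did. The tumor-free cells were not cultured, so tumor bearing and culture cannot be told apart in it.

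The size of the Cybb difference between cultured and tumor-free cells lay between 1.71 and 2.83 over 17 alternative settings, with an adjusted p between 0.00359 and 0.086. It missed the threshold when tumor-free 3 (adjusted p = 0.0801), cultured 1 (0.086) or cultured 2 (0.0502) was left out. It passed without each of the 3 arrays that stood apart, and without all of them the difference was 1.71 ± 0.27 (adjusted p = 0.00359). Arrays split at the median of their spike-in signal gave 3.28 in the high class, which is tumor-free 1 against cultured 1 and 2. In the low class, tumor-free 2 and 3 against cultured 3, the difference was 2.24. The split put fresh 2 (9.89) in the high and tumor-free 2 (9.79) in the low class, so it does not match spike-in levels closely.

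Cybb was 1.498 ± 0.43 higher on the log2 scale in cultured than in fresh cells, a 2.82-fold difference that did not pass the limma test (adjusted p = 0.0949, unadjusted p = 0.00499). The 95% interval was 0.56 to 2.44, and the groups did not overlap, as in 13.4% of all probe sets that were higher on every cultured array. It passed without tumor-free 1 (adjusted p = 0.0119), which enters this comparison through the shared estimate of the spread. It also passed with the spike-in class in the model (0.0235) and without the 3 arrays that stood apart (0.0113). Fresh and cultured arrays are split alike between the classes, so the class left the difference at 1.498 and changed only its spread. Within the high spike-in class, with the 2 arrays of each group left without the arrays that stood apart, the difference was 1.42. In the low class, which is cultured 3 against fresh 3 alone, it was 1.66.

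Between fresh and tumor-free cells the Cybb difference was 0.91 ± 0.43 (limma adjusted p = 0.309). The groups overlapped, and the value fell to 0.39 without tumor-free 1, the array with the lowest Cybb signal. It was 1.86 within the high spike-in class, which is tumor-free 1 against fresh 1 and 2. Within the low class, tumor-free 2 and 3 against fresh 3, it was 0.59.

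**Figure D2:**
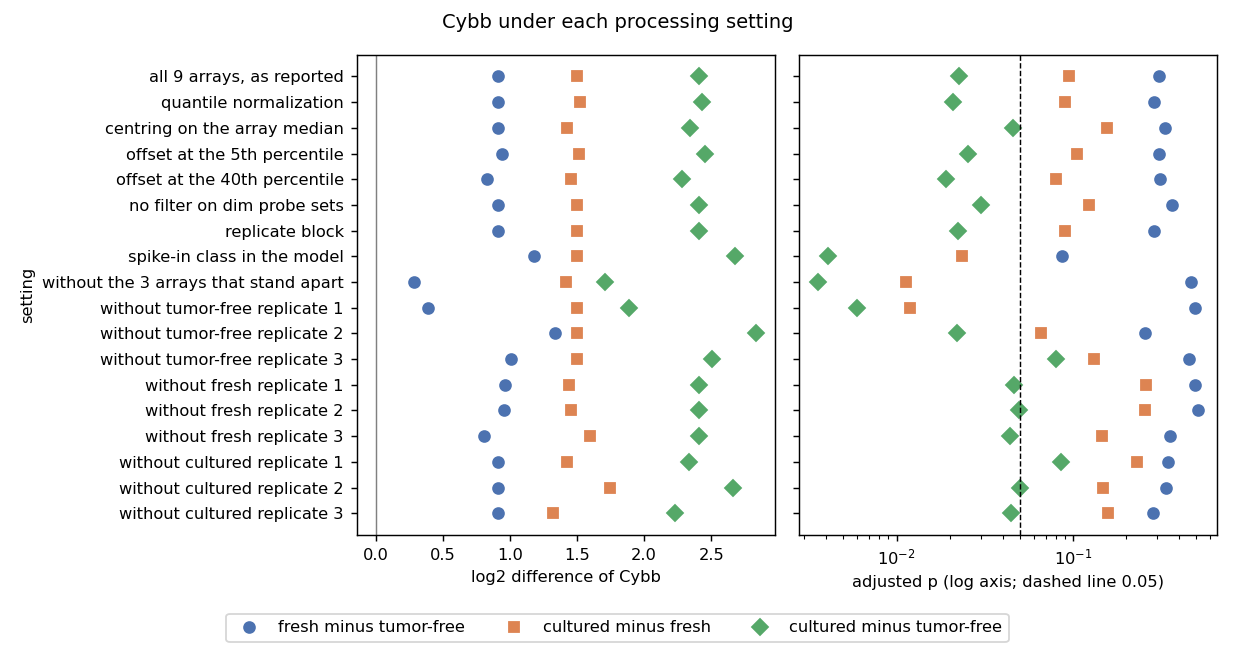
Left, log2 difference of Cybb in the 3 comparisons under each of 18 settings. Right, its limma adjusted p (log axis) with a dashed line at 0.05. The cultured minus tumor-free difference stays between 1.71 and 2.83 and crosses the line in 3 settings, and the fresh minus tumor-free difference passes in none.

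Cyba encodes the partner without which gp91phox is not stable in the membrane. On probe set 100059_at its signal was 1376, 3252 and 2861 on the tumor-free arrays, 2109, 2069 and 2190 on the fresh arrays, and 1957, 1902 and 3977 on the cultured arrays. The 3 fresh arrays lay close together, inside the span of both other groups. That span came from the low tumor-free 1 in the one and from the high cultured 3 in the other.

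The second Cyba probe set, 97013_f_at, gave 1711, 1230 and 1314 in tumor-free, 1543, 1217 and 1791 in fresh and 1240, 2190 and 2791 in cultured cells. The suffix _f marks probe sets whose probes can also match other sequences. The pair of Cyba probe sets correlated at r = 0.20 over the 9 arrays, a description over arrays that share groups, and the lowest tumor-free array of the first was the highest of the second. Their values are therefore given separately.

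Neither Cyba probe set passed the limma test in any comparison. For fresh minus tumor-free cells the log2 differences were -0.14 and 0.09, for cultured minus fresh 0.21 and 0.39, and for cultured minus tumor-free 0.07 and 0.48 (adjusted p from 0.556 to 0.961 over the 6). The 95% intervals of the last comparison, -0.78 to 0.92 and -0.24 to 1.21, do not show that Cyba was unchanged. When the 3 arrays that stood apart were left out, 100059_at was lower in fresh (-0.54, adjusted p = 0.0288) and in cultured cells (-0.66, adjusted p = 0.0149) than in tumor-free cells, and the sign of the latter was opposite to that over all 9 arrays.

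Ncf1 encodes the organiser subunit whose phosphorylation starts assembly. Its signal on probe set 97763_at was 159.9, 227 and 248 on the tumor-free arrays, 404, 492 and 337 on the fresh arrays, and 396, 244 and 1257 on the cultured arrays. Every fresh array was above every tumor-free array, whereas the cultured arrays ran from a tumor-free level to more than the highest fresh one.

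The mean of Ncf1 went from 211.7 ± 46.1 in tumor-free to 411 ± 77.8 in fresh cells, a log2 difference of 0.94 ± 0.49 (limma adjusted p = 0.35). It was 632 ± 547 in cultured cells, 1.22 ± 0.49 above tumor-free cells (adjusted p = 0.287), which became 0.56 without cultured 3 and 0.38 without the 3 arrays that stood apart. The difference between cultured and fresh cells, 0.28 ± 0.49, turned to -0.38 without cultured 3. The same difference was -0.51 within the high spike-in class, with the 2 arrays of each group left without the arrays that stood apart. It was 1.88 in the low class, which is cultured 3 against fresh 3 alone. The rise from tumor-free to fresh cells was 0.89 ± 0.24 and passed the test without the 3 arrays that stood apart (adjusted p = 0.0322).

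Ncf4 encodes p40phox, which binds a phosphoinositide of the phagosome membrane. The tumor-free arrays gave 797, 878 and 836 on probe set 103662_at, the fresh arrays 1212, 1086 and 1345, and the cultured arrays 1252, 1207 and 1888. All 6 tumor-bearing arrays were above all 3 tumor-free arrays, and fresh and cultured arrays overlapped.

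The log2 differences of Ncf4 were 0.53 ± 0.25 for fresh (limma adjusted p = 0.314) and 0.76 ± 0.25 for cultured cells (adjusted p = 0.193) against tumor-free cells, and 0.23 ± 0.25 between cultured and fresh cells (adjusted p = 0.728), the last falling to 0.023 without cultured 3. Over the 17 alternatives the sign of each was the same, and 1 of the 51 values passed: cultured against tumor-free without the 3 arrays that stood apart (0.52, adjusted p = 0.0397).

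Rac2 encodes the GTPase of blood cells that activates the assembled complex. On probe set 103579_at the tumor-free arrays gave 734, 2444 and 1906, the fresh arrays 2461, 2464 and 2993, and the cultured arrays 1106, 832 and 2645. The lowest fresh array was above the highest tumor-free array by a narrow margin, and cultured 3 lay among the fresh arrays while cultured 1 and 2 lay far below them.

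The Rac2 difference was 0.80 ± 0.49 between fresh and tumor-free cells (limma adjusted p = 0.428), -0.96 ± 0.49 between cultured and fresh cells (adjusted p = 0.371; -1.45 without cultured 3, -0.62 without cultured 2) and -0.16 ± 0.49 between cultured and tumor-free cells (adjusted p = 0.923). Without tumor-free 1 the first was 0.28. Without the 3 arrays that stood apart Rac2 was lower in cultured cells than in fresh cells (-1.35, adjusted p = 0.00333) and than in tumor-free cells (-1.16, adjusted p = 0.00402).

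**Figure D3:**
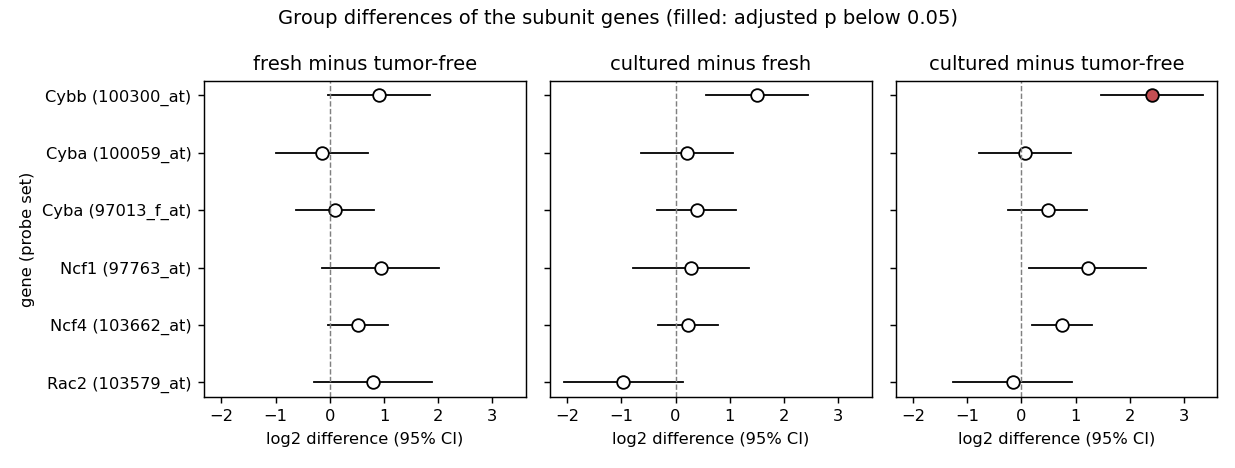
Log2 difference with its 95% interval for each oxidase probe set in the 3 comparisons, filled where the adjusted p was below 0.05. Cybb in cultured minus tumor-free cells, at 2.41, is the filled point, and Rac2 in cultured minus fresh cells, at -0.96, is the lowest value.

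As a group, the 6 oxidase probe sets had a median log2 difference of 0.66 between fresh and tumor-free cells, against 0.01 over all probe sets tested, and 5 of 6 were above 0. None passed the limma test (0 of 6 at an unadjusted p below 0.05, against 16.7% of all), in a comparison where 1.90% of all probe sets passed, and 3 of 6 were higher on every fresh array than on any tumor-free array, against 9.34% of all probe sets. Between cultured and fresh cells the median was 0.26 (0.02 over all), none passed where 2.69% of all did, 1 had an unadjusted p below 0.05 (16.3% of all), and 1 was higher on every cultured array, against 13.4% of all. Between cultured and tumor-free cells the median was 0.62 (0.05 over all), 3 had an unadjusted p below 0.05 (14.1% of all), and 2 were higher on every cultured array, against 10.3% of all. The comparisons share arrays pairwise, so these counts are not separate evidence.

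Without the 3 arrays that stood apart, 2, 2 and 4 of the 6 probe sets passed in the 3 comparisons, in both directions. In that setting 24.7%, 15.8% and 20.8% of all probe sets passed. The arrays left out were those that correlated least with their own group, which leaves pairs that are close by choice and a spread that is too small.

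Since Cybb and its partners are needed together, the change of Cybb was set against that of each other probe set within the same arrays. Cybb had the largest difference of the oxidase probe sets between cultured and fresh cells. An excess over each of the others there was therefore given in advance, and all the log ratios share the same Cybb values. Between fresh and cultured cells the log2 change of Cybb exceeded that of Rac2 by 2.46, that of the Cyba probe sets by 1.29 and 1.11, that of Ncf4 by 1.27 and that of Ncf1 by 1.21. The log ratios on cultured and fresh arrays did not overlap for Rac2, Ncf4 or either Cyba probe set (exact permutation test, two-sided, p = 0.1 each, the smallest that 3 against 3 arrays can give), and they overlapped for Ncf1 (exact permutation p = 0.2). Over the 15 such differences in the 3 comparisons the lowest adjusted p was 0.167, so none could pass.

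Across the 9 arrays Cybb followed Ncf4 (r = 0.83) and Ncf1 (r = 0.70) more closely than its membrane partner Cyba (0.46 and 0.36 for the 2 probe sets) or Rac2 (0.18). Ncf1 and Ncf4 correlated at 0.87. These values describe 9 arrays in 3 groups, and all pairs share the same arrays, scaling and arrays that stand apart.

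Among 7700 probe sets of other genes (7699 for Cyba), those most like Cybb over the 9 arrays were Rab3d, a GTPase of secretory vesicles (r = 0.93), the transcription elongation factor gene Tcea1 (0.93) and Serf1 (0.92). For Ncf1 they were the granzyme gene Gzmb (0.95), Ighg3, an immunoglobulin constant region (0.93), and Ap1g1, a vesicle adaptor (0.92). For Ncf4 they were the kinase gene Mapkapk2, Spin1 and the basophil protease gene Mcpt8 (0.91 to 0.92). For 100059_at of Cyba, the brighter of its probe sets, they were Adck1, the mitochondrial aldehyde dehydrogenase gene Aldh2, and Stam2 (0.95 to 0.97).

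Those most like Rac2 were the lactoferrin gene Ltf (r = 0.98), Mkrn1 (0.97) and the peptidoglycan recognition gene Pglyrp1 (0.97). Ltf was at 101.5, 2774 and 3239 on the tumor-free arrays, 4394, 4223 and 4216 on the fresh arrays, and 577, 221 and 3699 on the cultured arrays. The 3 arrays with the lowest Rac2, tumor-free 1 and cultured 1 and 2, were also the 3 with the lowest Ltf. The same 3 arrays had a 3' to 5' actin ratio above 2 (2.57, 2.27 and 2.36), and the part of RNA integrity in the Rac2 values was not tested. Among the other neutrophil markers Camp, Ngp, Mmp9 and Mpo had the same 3 lowest arrays. Most of the list had another order: Ly6g, S100a8, S100a9, Elane, Mmp8, Cxcr2, Csf3r and Lcn2. Mmp8, a collagenase gene, was at 1640 on tumor-free 1 against 141.2 and 217.9 on tumor-free 2 and 3. Mpo on cultured 3, at 27.5, was barely above its value of 27.1 on cultured 1.

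**Figure D4:**
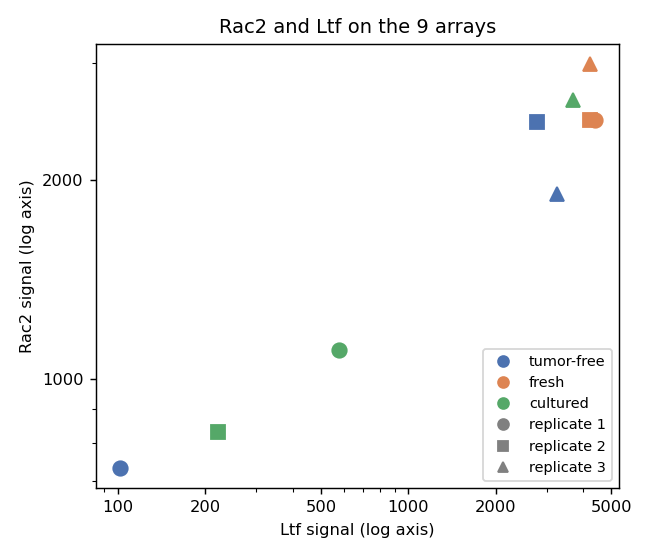
Rac2 signal against Ltf signal (both log axes) on the 9 arrays, with color for the group and symbol for the replicate number. Tumor-free 1 and cultured 1 and 2 lie at the low end of both genes (Rac2 at 734 to 1106) and are the 3 arrays with an actin 3' to 5' ratio above 2; the other 6 arrays lie at the high end.

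Markers of the cell types in such a sort are given by their summed signal and by how many passed the limma test in the 3 comparisons. In these comparisons 1.90%, 2.69% and 1.23% of all probe sets passed. All 13 neutrophil markers were on the array, with a summed signal of 34495 to 50527 in tumor-free, 50173 to 62101 in fresh and 16372 to 48280 in cultured cells, and 2, 1 and 2 passed. The bright genes S100a8, S100a9, Camp and Ngp weigh most in that sum, and its members did not go one way: the receptor gene Csf3r was at 965 to 1596 in tumor-free and 473 to 530 in fresh cells, and Cxcr2 at 163.3 to 275 and 51 to 75.2. The sum over all 9 macrophage markers was 4449 to 13859 in tumor-free, 2025 to 2219 in fresh and 3558 to 4505 in cultured cells, and 5, 2 and 4 passed. Between fresh and cultured cells these markers did not go one way either. The means of Hmox1 (862 and 2847), Cd68 (438 and 694), Adgre1 and Aif1 were higher in cultured cells. Those of C1qa (149.3 and 92.4), C1qb, C1qc, Mrc1 (134.5 and 20.2) and Vcam1 were lower. The sum over 4 of 7 monocyte markers was 1940 to 5378, 2193 to 2301 and 1265 to 3759, and none passed. The 9 of 10 B cell markers on the array summed to 204 to 1216, 432 to 502 and 319 to 714, and none passed. The 5 of 8 erythroid markers summed to 480 to 2255 in tumor-free, 4662 to 6339 in fresh and 686 to 6942 in cultured cells, without overlap between the first pair of groups, and none passed. Hba-a1 weighs most in that sum, with a mean of 1329 in tumor-free and 4776 in fresh cells. Epor, unlike the other erythroid markers, was lower in fresh cells (59.4 and 20.7). No marker of these lists was at 0, but the B cell markers Vpreb3 and Cr2 were too dim to pass the filter. Fresh cells also held pancreas transcripts, with a sum over 8 of 11 markers of 12271 to 20980 against at most 1050 in the other groups, and 7, 7 and 0 passed. The part of these differences in the oxidase values was not tested.

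The other genes of the pathway came from lists by role, each gene with its brightest probe set. Of 5 tested genes listed as oxidase partners or related oxidases none passed the limma test in any comparison. These 5 include the cytochrome gene Cyb561. In the 3 comparisons 0, 0 and 1 had an unadjusted p below 0.05, against 16.7%, 16.3% and 14.1% of all probe sets. Rac1, the GTPase that can stand in for Rac2, was at 1546, 4108 and 3420 on the tumor-free arrays, 1581, 1391 and 1983 on the fresh and 1092, 1582 and 1708 on the cultured arrays. Its difference was -0.77 ± 0.37 between fresh and tumor-free cells (adjusted p = 0.323) and -0.19 ± 0.37 between cultured and fresh cells. The former passed in 2 of 17 alternatives, among them the setting without the 3 arrays that stood apart (-1.33, adjusted p = 0.00332). The Rap1 GTPases are known to associate with the flavocytochrome. Rap1b was at 0.41 between fresh and tumor-free cells, and Rap1a was at 0.28 and Rap1b at -0.29 between cultured and fresh cells. Cyb561 was at 0.46 between fresh and tumor-free cells and at -0.17 between cultured and fresh cells. Its dimmer second probe set was at 0.15 and at -1.31 (limma adjusted p = 0.253 for the latter).

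Of 25 tested genes of the signals that start assembly none passed either, with 2, 5 and 3 at an unadjusted p below 0.05 in the 3 comparisons, where 16.7%, 16.3% and 14.1% of all probe sets were. Between fresh and tumor-free cells the largest differences were those of the lipid kinase genes Pik3cd (-1.16) and Pik3c3 (-0.88) and the phospholipase gene Pla2g4a (-0.86). Between cultured and fresh cells they were those of C5ar1, the receptor for complement C5a (-1.47, adjusted p = 0.208), Pik3c3 (1.22) and the tyrosine kinase gene Syk (-1.07, adjusted p = 0.0709), whose dimmer second probe set was at 0.98. Pik3c3 had a mean signal of 7.44 in fresh cells, below the offset of 7.83, so the size of its differences is not well measured.

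Among 14 tested enzymes that take up superoxide and peroxide, 1 rose between tumor-free and fresh cells, 2 fell between fresh and cultured cells, and 2 were higher in cultured than in tumor-free cells, where 1.90%, 2.69% and 1.23% of all probe sets passed in either direction. Sod2, the superoxide dismutase of mitochondria, was at 276, 59.2 and 78.1 on the tumor-free, 461, 450 and 788 on the fresh and 590, 740 and 1018 on the cultured arrays. It was 2.24 ± 0.49 higher in fresh (limma adjusted p = 0.0452) and 2.71 ± 0.49 higher in cultured cells (adjusted p = 0.0229) than in tumor-free cells. Among single arrays left out, the fresh call held without tumor-free 1 or cultured 3 (adjusted p up to 0.186 otherwise), and it was lost with centring on the array median, without the filter and with the spike-in class in the model (0.0672, 0.0564 and 0.051). The cultured call was lost without tumor-free 2 or 3 or cultured 1 or 2 (adjusted p up to 0.112).

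Myeloperoxidase, Mpo, which turns peroxide into hypochlorous acid, was at 2.08, 55 and 95.2 on the tumor-free, 223, 182.9 and 789.8 on the fresh and 27.1, 5.76 and 27.5 on the cultured arrays. It fell by 3.68 between fresh and cultured cells (limma adjusted p = 0.0409) and its difference between fresh and tumor-free cells, 3.03, did not pass (0.0953). The Mpo values of tumor-free 1 and cultured 2 lay below the offset of 7.83. The secreted glutathione peroxidase gene Gpx3 fell by 2.24 between fresh and cultured cells (adjusted p = 0.0219). The thioredoxin reductase gene Txnrd1 was 1.95 higher in cultured than in tumor-free cells (adjusted p = 0.0314), and thioredoxin, Txn1, 1.12 higher in cultured than in fresh cells without passing (0.119). The Mpo call was also lost with centring on the array median (0.0558), the smaller offset (0.0714) and no filter (0.0588). With single arrays left out the adjusted p reached 0.165 for Mpo, 0.102 for Gpx3 and 0.152 for Txnrd1. A further Mpo probe set gave -0.27 between fresh and cultured cells and did not pass.

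Of 14 tested transcription factors named for oxidase genes, 2 rose between fresh and cultured cells: Irf1 and Irf8, factors that bind interferon response elements. In the 3 comparisons 1, 2 and 1 of the 14 passed, where 1.90%, 2.69% and 1.23% of all probe sets did. Irf1 was at 344, 407 and 356 on the tumor-free, 157.8, 151.7 and 196.7 on the fresh and 748, 844 and 1315 on the cultured arrays. It was 2.43 ± 0.26 higher in cultured than in fresh cells (limma adjusted p = 0.000857), a call kept in all 17 alternatives, and 1.33 ± 0.26 higher than in tumor-free cells (adjusted p = 0.0362, 0.0829 with centring on the array median and up to 0.165 with single arrays left out). The 3 groups of Irf1 did not overlap, with the fresh arrays lowest. For Cybb the tumor-free arrays were lowest on average, and a link between the 2 genes was not tested.

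Irf8 was at 339, 489 and 494 on the tumor-free, 172.7, 156.9 and 95.4 on the fresh and 434, 954 and 347 on the cultured arrays. It rose by 1.87 ± 0.38 between fresh and cultured cells (limma adjusted p = 0.0253, up to 0.0849 with single arrays left out). Its difference between fresh and tumor-free cells, -1.61, and that of Irf1, -1.10, did not pass (adjusted p = 0.0642 and 0.0658). Cebpd, a C/EBP factor, fell by 1.87 between tumor-free and fresh cells (adjusted p = 0.00897; without fresh 1 and fresh 2 it was 0.0558 and 0.0667), and Myb was at -0.58 between cultured and fresh cells.

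None of 8 tested genes of NADPH supply passed the limma test. In the 3 comparisons 0, 2 and 0 had an unadjusted p below 0.05, against 16.7%, 16.3% and 14.1% of all probe sets. The NADPH-producing dehydrogenase gene Idh1 (1.03, adjusted p = 0.17) and Nampt, of NAD synthesis (1.20, adjusted p = 0.182), were higher on every cultured than on any fresh array. Nadk, the NAD kinase gene, was at -0.34 in that comparison. Between fresh and tumor-free cells Idh1 was at -0.55, Nadk at 0.45 and the transketolase gene Tkt at 0.45.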

How the data were processed

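Per the submitters' processing notes the deposited signals were made with MAS5, in 1 linear intensity for each probe set and array; the sources used here give no version or settings. Each array had a 2% trimmed mean of 100.1, which shows that arrays were scaled alike. Detection calls were not used, so whether a signal lies above background is not known, and precision is limited by how many arrays there are. Between 16.6% and 23.6% of an array's values lay below the offset.

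The analysis used log2(signal + 7.83); this offset is the value below which 20% of the deposited signals lie. The 66 control probe sets and the dimmest 30% were left out. A model with 3 group means over all 9 arrays was fitted in limma 3.58.1 (R 4.3.3) with an intensity trend and 6 residual degrees of freedom, after a test on simulated data. Intervals are those of the moderated fit at 95%. Symbols came from the platform annotation, which gave 1 symbol for 10855 probe sets, several for 396 and did not list 1237. RefSeq gene IDs matched 10839 and changed 0 symbols.

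Named list genes are those called in a comparison and the 3 largest differences of each list in the first and second comparison. The nearest patterns are the 3 probe sets with the highest Pearson r. The members, lists, rules and alternatives were chosen with earlier results of these data known. Alternatives were quantile normalization, median centring, an offset of 2.11 or 24.7 (5% or 40% of signals below it), no filter, the replicate number as a block, the spike-in class in the model, and arrays left out.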

Additional observations from a re-analysis of the deposited data

How the results depend on the processing

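The Cybb difference between cultured and tumor-free cells kept its direction in all 17 alternatives and its call in 14. With single arrays left out, 0, 0 to 1 and 0 to 1 of the 6 oxidase probe sets passed for fresh against tumor-free (A), cultured against fresh (B) and cultured against tumor-free cells (C), and between 63 and 623, 74 and 489, and 24 and 529 of all probe sets. With the spike-in class in the model 1 oxidase probe set passed in B, and 277, 556 and 177 of all passed against 165, 234 and 107. Without the 3 arrays that stood apart 2, 2 and 4 oxidase probe sets passed, and 2147, 1374 and 1810 of all. Signs turned as follows, and the cause was not tested. With the spike-in class in the model Cyba 100059_at was at 0.11 in A and Rac2 at 0.20 in C. Without the 3 arrays Rap1b was at -0.016 and Tkt at -0.19 in A, Cyba 100059_at at -0.11 and Ncf1 at -0.51 in B, and Cyba 100059_at at -0.66 in C. With single arrays left out Cyba 100059_at ran from -0.52 to 0.096, -0.14 to 0.39 and -0.31 to 0.31 in A, B and C, Cyba 97013_f_at from -0.034 to 0.24 in A, Ncf1 from -0.38 to 0.79 and Rac1 from -0.31 to 0.0084 in B, and Rac2 from -0.68 to 0.18 in C. Deviations of same-numbered arrays from their group means correlated between -0.20 and 0.26, with 5 of 9 pairs above 0.1. Of the 9 arrays 2 correlated best with their own number in both other groups. Whether the replicate numbers pair the samples cannot be told from these values. The replicate block left 0, 0 and 1 oxidase probe sets called, with 200, 258 and 144 of all, and changed no call of an oxidase gene.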
